A study of Mus musculus with 22 samples.

Results

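Pericytes of the mouse hypothalamus were taken from the Day 5 single-cell RNA-seq (scRNA-seq) dataset as the one deposited cluster with the highest percent of cells that held at least 1 unique molecular identifier (UMI) of Kcnj8. That cluster held 359 of 54890 whole cells (0.654%), and all 12 mice contributed to it, with 11 to 63 pericytes each. The cells came from male ob/ob mice, which lack leptin and are obese and diabetic, of 11 weeks of age. Of these, 6 were given 3 µg of fibroblast growth factor 1 (FGF1) in a single intracerebroventricular (icv) injection, and the other 6 were given PBS as the vehicle and pair-fed to the FGF1 mice. Each library was 1 mouse, and the 6 batches of the deposited metadata each held 1 FGF1 and 1 vehicle mouse. The series also holds 24965 nuclei, whose annotation has no pericyte class.

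Pericytes are mural cells that sit in the basement membrane of capillaries and contact the endothelium, and in the brain they support the blood-brain barrier and capillary tone. Endothelial PDGF-B holds them on the vessel through the receptor Pdgfrb, and their ATP-sensitive potassium (KATP) channel, built from Kcnj8 and Abcc9, couples the energy state of the cell to its membrane potential. Arteriolar smooth muscle cells share the mural lineage but carry the contractile proteins Acta2, Tagln and Myh11.

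The cluster was chosen by the percent of its cells with a Kcnj8 UMI, so the level of Kcnj8 there is a description with no test. Kcnj8 was counted in 40.4% of the cells of this cluster and in 10.8% of the 4113 cells of the next cluster, which was endothelial-like by Cldn5. It was counted in 3.16% of the 95 smooth-muscle-like cells and in 2.66% of the 752 cells like those of vessels and leptomeninges (VLMC). The label was checked against the levels of pericyte markers that the rule did not use, which belong to the same cells as the clustering and carry no test. Vtn was counted in 92.5% and Rgs5 in 90.5% of the cluster. In the astrocyte-like cluster, the one with the highest percent of cells with a UMI of Agt, which should lack these genes and was of like depth (a median of 1162 UMIs per cell against 1108), the shares were 0.0487% for Kcnj8, 0.730% for Vtn and 2.70% for Rgs5. All of Kcnj8, Vtn and Rgs5 were found in 132 cells, 2 of them in 183, 1 in 40 and none in 4. Of the smooth muscle list, Myl9 was counted in 69.6% and Tpm2 in 10.9% of pericytes, Acta2 in 3.62%, Tagln in 1.39% and Myh11 in 4.46%, and Pln had no UMI in them. The list summed to 1411 CPM in pericytes and 109.6 CPM in other cells, and Myl9 held 541 of its 637 UMIs.

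Kcnj8 and Abcc9 encode the pore and the regulatory subunit of the vascular KATP channel and lie next to each other on chromosome 6. In the GENCODE annotation of GRCm38, Kcnj8 lies at chr6:142564837-142571614 and Abcc9 at chr6:142587862-142702315, both on the minus strand and 16.2 kb apart. Their promoters are shown as those of the channel that includes the gene used to choose the cluster, with those of the markers Vtn and Rgs5 and of the myosin light chain Myl9, the one leading gene with a CArG box. The sequences are from RefSeq (GRCm38.p6), run from 250 bases before to 50 after a start, and are printed 5′ to 3′ in the direction of the gene. Capitals mark TGGGAA, the core letters bound by the Notch effector RBPJ, on either strand, and in Myl9 the CArG box, the element bound by serum response factor. The Rgs5 window held none of the motifs searched. The windows are chr6:142571565-142571864 for Kcnj8 (minus strand), chr6:142702225-142702524 for Abcc9 (minus strand), chr11:78498870-78499169 for Vtn (plus strand), chr1:169655251-169655550 for Rgs5 (plus strand) and chr2:156775214-156775513 for Myl9 (plus strand).
Kcnj8: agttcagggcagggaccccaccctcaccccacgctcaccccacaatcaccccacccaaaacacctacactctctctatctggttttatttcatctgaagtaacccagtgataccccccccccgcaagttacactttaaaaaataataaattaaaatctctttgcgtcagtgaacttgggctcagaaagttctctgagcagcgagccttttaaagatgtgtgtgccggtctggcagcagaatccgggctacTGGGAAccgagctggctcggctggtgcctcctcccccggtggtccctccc
Abcc9: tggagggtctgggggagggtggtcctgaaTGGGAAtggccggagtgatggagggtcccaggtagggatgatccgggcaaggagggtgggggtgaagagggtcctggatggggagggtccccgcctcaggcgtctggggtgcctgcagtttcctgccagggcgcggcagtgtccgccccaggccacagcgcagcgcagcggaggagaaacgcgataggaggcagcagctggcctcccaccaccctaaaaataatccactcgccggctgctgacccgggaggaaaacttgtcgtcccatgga
Vtn: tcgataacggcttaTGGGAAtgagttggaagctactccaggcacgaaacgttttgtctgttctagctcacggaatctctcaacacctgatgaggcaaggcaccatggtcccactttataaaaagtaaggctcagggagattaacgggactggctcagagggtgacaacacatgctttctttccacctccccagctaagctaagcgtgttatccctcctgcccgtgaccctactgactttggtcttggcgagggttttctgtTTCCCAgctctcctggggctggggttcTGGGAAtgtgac
Rgs5: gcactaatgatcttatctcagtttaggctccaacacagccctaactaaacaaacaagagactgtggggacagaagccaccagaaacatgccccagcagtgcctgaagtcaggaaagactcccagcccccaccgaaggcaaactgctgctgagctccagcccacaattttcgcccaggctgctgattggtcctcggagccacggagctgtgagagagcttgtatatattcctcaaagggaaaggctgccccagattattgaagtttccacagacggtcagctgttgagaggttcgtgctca
Myl9: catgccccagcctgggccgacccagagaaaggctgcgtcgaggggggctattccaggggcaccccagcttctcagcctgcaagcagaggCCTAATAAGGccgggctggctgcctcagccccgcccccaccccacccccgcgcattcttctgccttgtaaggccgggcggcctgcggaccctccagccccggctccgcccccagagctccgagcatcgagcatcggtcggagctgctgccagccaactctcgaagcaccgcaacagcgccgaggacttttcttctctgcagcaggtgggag
Promoters were listed for 17 of the 25 genes with the highest ratio to other cells, 22 promoters in all. TGGGAA or its complement TTCCCA was in 5 of the 22 (22.7%), against 25.6% of all 32851 promoters. ACGTG, the core of the hypoxia response element, or CACGT was in 3 of the 22 (13.6%), against 19.6%. The CArG box was in 1 of the 22, the Myl9 promoter, against 1.63%. These letter matches are not binding sites, and the shares of TGGGAA and ACGTG in the 22 promoters were near or under those of all promoters.

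The identity genes were described as CPM, the UMIs of a gene scaled to the same total of UMIs (1e6) in each mouse. A gene entered the ranking where at least 25% of pericytes held a UMI, which 476 genes did, and the ranking used the same cells as the clustering, so it carries no test. Vtn, which encodes the adhesive matrix protein vitronectin, led with 4503 ± 1408 CPM (SD, n = 12 mice), 53.3-fold the level in all other cells. Kcnj8 followed at 478 ± 247 CPM (52.9-fold) and Abcc9 stood at 350 ± 198 CPM (32.6-fold). Both channel subunits were counted together in 65 cells, Kcnj8 alone in 80, Abcc9 alone in 76 and neither in 138, at a median of 1108 UMIs per cell.

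Nuclear genes of mitochondrial proteins also stood among the leading 25. Ndufa4l2, a hypoxia-induced mitochondrial protein, had 946 ± 338 CPM (38.8-fold), and Higd1b, a mitochondrial membrane protein of a hypoxia-inducible family, had 1463 ± 426 CPM (36.3-fold). Cox4i2, an isoform of a cytochrome c oxidase subunit, had 307 ± 114 CPM (29.0-fold). Epas1, a hypoxia-inducible transcription factor, was 2.69-fold the other cells but 0.404 of the endothelial level.

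Of the transporters, 3 were among the genes found in at least 25% of pericytes. The P-type ATPase Atp13a5 had 519 ± 274 CPM (32.3-fold), the imino acid transporter Slc6a20a 316 ± 94.7 CPM (29.1-fold) and the folate transporter Slc19a1 249.5 ± 134 CPM (16.9-fold). Slc38a11 and Slc16a12 were 37.5- and 31.7-fold the other cells, but they were counted in 13.9% and 10.0% of pericytes.

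Among signalling genes, Pdgfrb had 808 ± 244 CPM (20.0-fold), the Notch receptor Notch3 351 ± 129 CPM (15.8-fold) and the sphingosine 1-phosphate receptor S1pr3 153 ± 60.9 CPM (7.60-fold). Rgs5 and Rgs4, which shorten signalling by G-protein coupled receptors, had 2741 ± 542 and 769.6 ± 235 CPM (16.8-fold each). The subunits of the nitric oxide receptor, Gucy1b3 and Gucy1a3, had 321 ± 121 and 223 ± 67.3 CPM (18.1- and 10.7-fold). Adora2a, an adenosine receptor, and Gper1, an estrogen receptor of the G-protein coupled kind, were 22.8- and 22.3-fold the other cells.

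The contractile list was uneven. Myl9 had 1232 ± 353 CPM and the actin-binding protein Cald1 1261 ± 433 CPM, 21.1- and 9.08-fold the other cells. Acta2 had 36.5 ± 37.9 CPM in pericytes and 5058 CPM in the pooled smooth-muscle-like cells, where Myl9 had 4443 CPM.

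**Figure D1:**
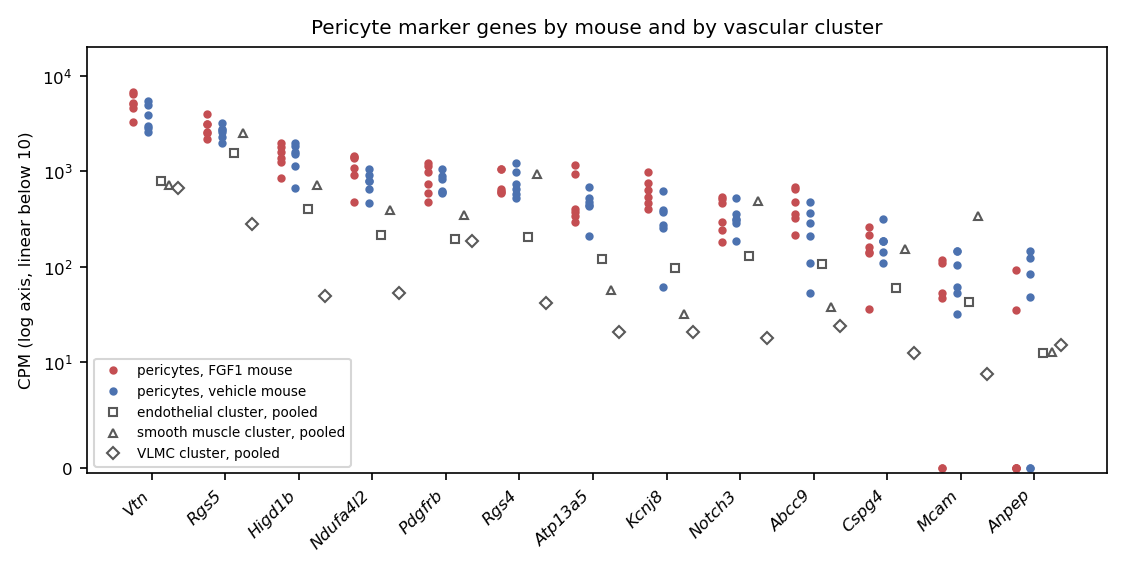
The CPM of 13 pericyte marker genes (vertical axis, logarithmic above 10 and linear below) is plotted per mouse for pericytes (red, FGF1; blue, vehicle) with the pooled CPM of the endothelial-like, smooth-muscle-like and VLMC-like clusters (open symbols). For Vtn and Pdgfrb the pericytes of every mouse lie above the open symbols. For Kcnj8 vehicle replicate 27 (61.4 CPM) lies under the endothelial-like cells (97.7 CPM), and for Rgs5, Rgs4, Notch3 and Mcam the smooth-muscle-like cells lie among or above the pericytes. The lowest mice for Abcc9 (52.9 CPM), Cspg4 (36.3 CPM) and Anpep (0 CPM) also lie under the endothelial-like means over mice (112, 57.4 and 11.2 CPM).

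Pericyte markers also stood in the endothelial-like cluster. Of the 664 cells with a Kcnj8 UMI, 145 were in the pericyte cluster and 444 in the endothelial-like cluster. At least 5 UMIs of 8 pericyte markers (Kcnj8, Vtn, Abcc9, Higd1b, Ndufa4l2, Atp13a5, Pdgfrb, Notch3) were held by 309 of 359 pericytes (86.1%), by 1014 of 4113 endothelial-like cells (24.7%) and by no cell of the astrocyte-like cluster. The 1014 cells held a median of 1869 UMIs, against 1225 in the other endothelial-like cells and 1108 in pericytes. The cut is a count of UMIs, which deeper cells reach more easily, so a higher median is in part built in. In the 1014 cells the summed CPM of 8 endothelial markers (Cldn5, Pecam1, Flt1 and others) was 10102, against 10542 in the other endothelial-like cells and 1070 in pericytes. These cells carried both marker sets, and their part in the endothelial level of pericyte genes was not tested. Per marker, the endothelial-like level was 17.8% (Vtn), 20.5% (Kcnj8), 24.0% (Pdgfrb) and 59.7% (Rgs5) of the pericyte level. Per mouse, such cells were 13.4% to 32.1% of endothelial-like cells in FGF1 mice and 18.7% to 30.6% in vehicle mice.

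**Figure D2:**
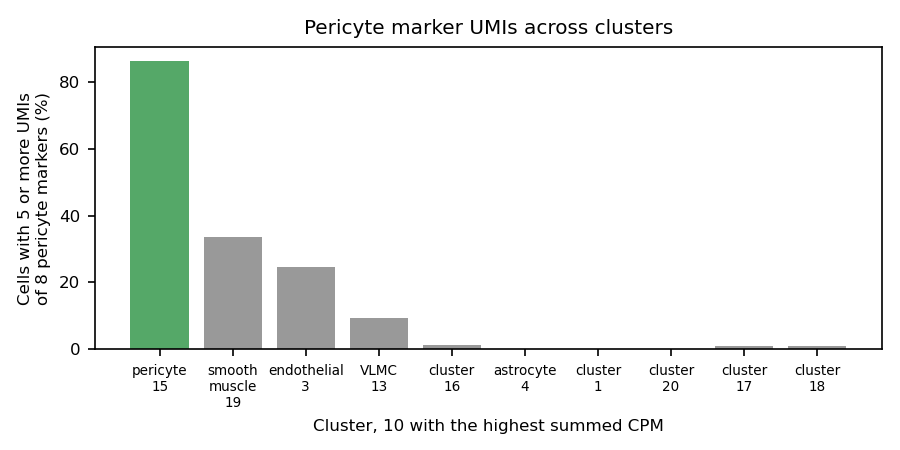
Bars give the percent of cells with 5 or more UMIs of 8 pericyte markers in the 10 clusters with the highest summed CPM of those markers (horizontal axis, cluster numbers as deposited). The pericyte cluster (86.1%) is followed by the smooth-muscle-like (33.7%), endothelial-like (24.7%) and VLMC-like (9.44%) clusters, and the remaining bars are at or under 1.22%.

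Transcripts of other cell types were present in pericytes as well. The summed CPM of 6 astrocyte markers was 4405 in pericytes and 4595 in all other cells, and that of 6 oligodendrocyte markers was 4234 and 11544. By mouse, the astrocyte sum was 2061, 4332 and 5870 (lowest, median, highest) under FGF1 and 2643, 4875 and 5892 under vehicle. The oligodendrocyte sum was 1852, 3882 and 9290 under FGF1 and 3640, 4922 and 8776 under vehicle. Both sums overlapped between the groups, with the lower median under FGF1. The endothelial sum was 320, 1117 and 1452 (lowest, median, highest) under FGF1 and 423, 992 and 1331 under vehicle. Of 1791 barcode sequences found in more than 1 mouse, 23 belonged to pericytes, and none joined pericytes of 2 mice.

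The number of pericytes was compared to ask whether FGF1 changed their share. Pericytes were 0.372%, 0.547% and 1.35% of cells (lowest, median, highest) in the 6 FGF1 mice and 0.323%, 0.630% and 0.755% in the 6 vehicle mice. The groups overlapped, and the highest value was that of FGF1 replicate 10 (exact Clopper-Pearson 95% interval 1.04% to 1.72%, counting error only). The means were 0.674% ± 0.380 and 0.607% ± 0.161 (SD, n = 6), and the difference did not pass an exact two-sided permutation test (difference 0.0671 percentage points, p = 0.760, adjusted over 4 tests 0.799). The FGF1 mouse was higher in 3 of 6 batches, with a range of differences from -0.372 to 1.03 percentage points (exact sign-flip permutation test, p = 0.875). Without FGF1 replicate 10 the difference was -0.0680. With the 1014 endothelial-like cells that held pericyte markers added, a setting chosen after seeing the data, it was -0.585 (exact permutation p = 0.266).

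Per 100 endothelial-like cells there were 5.95, 9.42 and 16.9 pericytes (lowest, median, highest) in FGF1 mice and 4.33, 6.97 and 10.4 in vehicle mice. The ratio was higher under FGF1 in 5 of 6 batches, and the groups overlapped. The mean difference of 2.90 (9.92 ± 3.93 against 7.02 ± 2.12, SD, n = 6) did not pass the exact permutation test (p = 0.136, adjusted over 4 tests 0.545), and was 1.496 without FGF1 replicate 10. Per 100 endothelial-like and VLMC-like cells together, the difference was 1.67 (exact permutation p = 0.478). Counts of dissociated cells do not separate the number of pericytes in the tissue from their recovery. Median UMIs per pericyte were 1039.5 to 1167 in FGF1 mice and 1010 to 1299 in vehicle mice (exact permutation p = 0.703). The median percent of mitochondrial UMIs was 10.8% to 17.0% and 11.6% to 15.3% (exact permutation p = 0.799). No difference in depth or in mitochondrial share was detected.

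**Figure D3:**
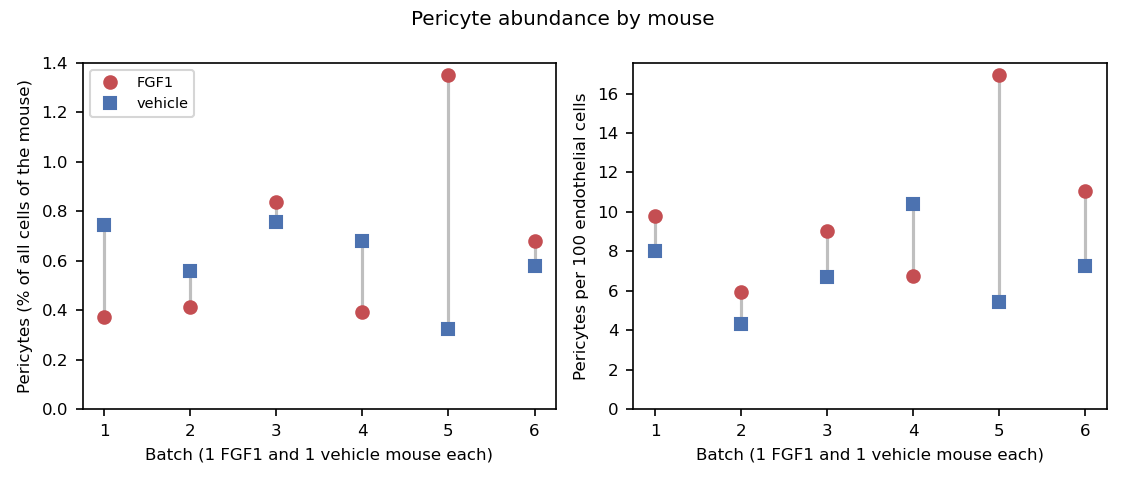
Pericytes as a percent of all cells of a mouse (left) and per 100 endothelial-like cells (right) are shown by batch, with the FGF1 mouse (red circle) and the vehicle mouse (blue square) of each batch joined by a line. FGF1 replicate 10 in batch 5 is the highest point in both panels, at 1.35% and 16.9 per 100.

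Differentially expressed genes (DEGs) between FGF1 and vehicle were sought on UMIs summed per mouse, of which pericytes gave 12487 to 84511 per mouse. The p-values rest on the spread between mice, which edgeR estimates in part from all genes tested together. The SE of a gene therefore differs with the set of genes tested. No gene of 313 tested passed a Benjamini-Hochberg FDR below 0.05 in the quasi-likelihood test of edgeR (percent called 0), and DESeq2 called none either. At an unadjusted p below 0.05, edgeR gave 36 genes (11.5% of those tested), 19 higher (6.07%) and 17 lower (5.43%), and DESeq2 gave 28. The median SE of a log2 fold change was 0.23, and for 262 of the 313 genes (83.7%) the 95% interval lay within a 2-fold change in either direction.

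Among the 6 genes with the smallest p that were higher under FGF1, S100a6, a calcium-binding protein, was at 80.1, 678 and 1489 CPM (lowest, median, highest) under FGF1 and 61.4, 303 and 445 under vehicle. In this gene 5 of 6 FGF1 mice lay above the highest vehicle mouse and replicate 21 lay near the lowest. The lowest value of each group was 1 UMI. The log2 fold change of S100a6 was 1.39 (SE 0.41, edgeR FDR = 0.277). It passed the threshold when all 6326 genes with at least 10 UMIs were tested (SE 0.29, edgeR FDR = 0.00905, with 2 genes or 0.0316% called). Without the 95 pericytes that held 2 or more endothelial UMIs the log2 fold change was 2.13 (edgeR FDR = 0.0166). FGF1 replicates 7 and 21 and vehicle replicate 27, then under 10 pericytes, were not in that fit. Mgp, matrix Gla protein, an inhibitor of vascular calcification, was at 320.3, 1156 and 3935 CPM under FGF1 and 307, 405 and 899 under vehicle. FGF1 replicate 7 held the highest value and the groups overlapped. Its log2 fold change was 1.44 (SE 0.46, edgeR FDR = 0.313), and with at least 10 UMIs per gene it too was called (SE 0.29, FDR = 0.0112). Without FGF1 replicate 7 the log2 fold change was 0.95 (edgeR FDR = 0.475).

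Mgp and S100a6 were also abundant in VLMC-like cells, at 2042 and 1940.3 CPM against 966 and 562 CPM in pericytes. S100a6 was at 1828 CPM over all other cells, above its level in pericytes. The number of VLMC-like cells per mouse ran from 1 to 195 under FGF1 and from 7 to 123 under vehicle. FGF1 replicates 7 and 36, which held 186 and 195 of these cells, had 3935 and 896 CPM of Mgp and 609 and 1437 CPM of S100a6. FGF1 replicate 21, with 1 such cell, had 320.3 and 80.1 CPM, the lowest values of the FGF1 group. FGF1 replicate 6, with 49 such cells, had 1416 CPM of Mgp and the highest S100a6 (1489 CPM), and FGF1 replicate 10, with 20, had 1444 and 579.8 CPM. FGF1 replicate 28, with 40, had 481 and 748 CPM. Vehicle replicate 35, with 123, had 899 and 317 CPM, and vehicle replicate 20, with 94, had 413 and 445 CPM. Vehicle replicate 22, with 17, had 728 and 250 CPM, and vehicle replicate 29, with 11, had 398 and 289 CPM. Vehicle replicate 25, with 9, had 352 and 435 CPM, and vehicle replicate 27, with 7, had 307 and 61.4 CPM. In pericytes the summed VLMC markers (7 of 8 with a UMI, Lum at 0) were at 240 to 515 CPM under FGF1 and 310 to 582 under vehicle, and the part of VLMC transcripts in these differences was not tested.

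The nitric oxide receptor subunit Gucy1b3 was at 290.5, 425 and 468 CPM under FGF1 and 123, 238 and 370 under vehicle, and 5 of 6 FGF1 mice were above the highest vehicle mouse (log2 fold change 0.85, SE 0.25, edgeR FDR = 0.277). Tsc22d1, a transcription regulator induced by TGF-beta, was at 399, 592 and 711 CPM against 52.9 (1 UMI), 187 and 562 (1.10, SE 0.33, FDR = 0.277). It stood at 1438 CPM in endothelial-like cells against 405 CPM in pericytes, and the part of endothelial transcripts was not tested. Vehicle replicate 22 lay apart from the other vehicle mice for this gene, and without it Tsc22d1 and Gstm1 passed (FDR = 0.0230 and 0.0415). Rarres2, which encodes the adipokine chemerin, had a log2 fold change of 0.73 and the ribosomal protein gene Rps18 one of 0.35 (edgeR FDR = 0.328 each). Rarres2 is also one of 5 ependymal markers, whose sum in pericytes was 561 to 890.1 CPM under FGF1 and 286 to 582 CPM under vehicle. Rarres2 itself held 211 of the 260 UMIs of this sum, so the sum mostly restates Rarres2. Of the ependymal markers, 2 were among the 6326 genes with at least 10 UMIs. Both were higher at an unadjusted edgeR p below 0.05, as were 2.42% of the 6326 genes, with a median log2 fold change of 1.17. The part of ependymal transcripts in pericytes was not tested.

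Among the 6 genes with the smallest p that were lower under FGF1, Gstm1, a glutathione transferase, was at 214, 307 and 400.4 CPM under FGF1 and 312, 565 and 899 under vehicle, and it was lower in 6 of 6 batches (log2 fold change -0.90, SE 0.25, edgeR FDR = 0.277). Without cells over 20% mitochondrial or ribosomal UMIs it was -0.52. Vehicle replicates 27 and 35, then under 10 pericytes, were not in that fit. These held the highest vehicle values of Gstm1 (798 and 899 CPM). Gstm1 was also lower in endothelial-like cells (-0.47, edgeR FDR = 0.0399) and in astrocyte-like cells (-0.53, edgeR FDR = 0.0219). Neither difference of pericytes from them passed (edgeR interaction test, FDR = 0.994 and 0.840). Ndufc1, a subunit of respiratory complex I, was at 240.2, 324 and 375 CPM against 413, 446 and 846 (-0.74, SE 0.23, FDR = 0.277). It was the only gene of the 313 tested (0.319%) whose groups did not overlap. Atp5k, a subunit of ATP synthase, had a log2 fold change of -0.84 (SE 0.26, FDR = 0.277), and Tsc22d3, the glucocorticoid-induced leucine zipper, one of -0.56 (SE 0.19, FDR = 0.328). Tsc22d3 was at -0.86 in astrocyte-like cells (edgeR FDR = 1.2e-04) and -0.11 in endothelial-like cells (edgeR FDR = 0.722). Ndrg2, which is high in astrocytes, was lower by 0.35 on the log2 scale and Rpl38 by 0.64 (FDR = 0.328 each). Ndrg2 stood at 3492 CPM and Gstm1 at 654 CPM in the astrocyte-like cells, and the astrocyte sum in pericytes had the lower median under FGF1, as given above. The part of astrocyte transcripts in these differences was not tested.

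**Figure D4:**
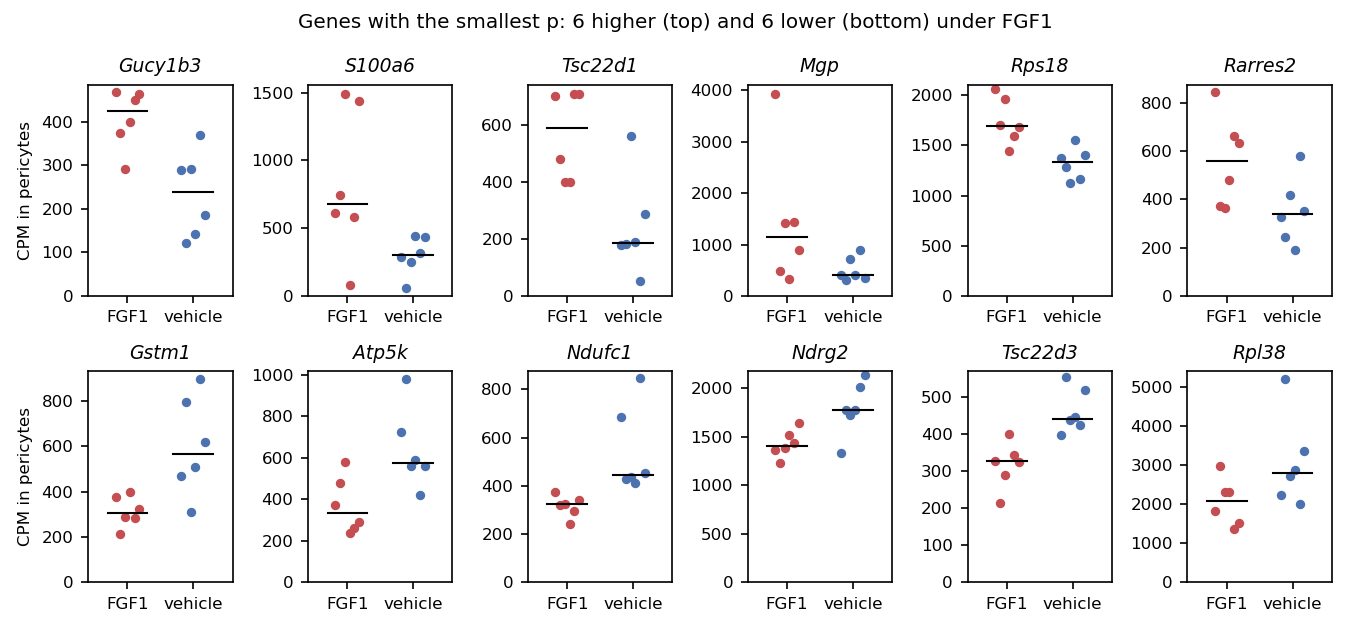
Dots are the CPM of 1 gene in the pericytes of 1 mouse (FGF1 red, vehicle blue, 6 mice each) and lines are medians, for the 6 genes higher (top) and the 6 lower (bottom) under FGF1 with the smallest p. The groups are apart for Ndufc1 and overlap for the other 11 genes, and no gene passed the adjusted threshold.

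Of the 8 pericyte markers tested, 7 had a log2 fold change above 0, as did 144 of all 313 genes, and none of the 8 passed the adjusted threshold. Kcnj8 was at 399, 587 and 984 CPM under FGF1 and 61.4 (1 UMI), 320 and 624 under vehicle. The groups overlapped, and the FGF1 mouse was higher in 5 of 6 batches (log2 fold change 0.77, SE 0.32, edgeR FDR = 0.379). Without the 95 pericytes that held 2 or more endothelial UMIs it was 0.25 (FDR = 0.836). FGF1 replicates 7 and 21 and vehicle replicate 27, then under 10 pericytes, were not in that fit. With at least 20 cells per mouse the log2 fold change was 0.47 (FDR = 0.632). That minimum left out FGF1 replicates 7, 21 and 28 and vehicle replicates 27 and 35. The share of pericytes with a Kcnj8 UMI was 30% to 72.2% under FGF1 and 9.09% to 41.0% under vehicle. Abcc9, tested only with the wider set of genes, had a log2 fold change of 0.80 (FDR = 0.868), with 214, 414 and 686 CPM against 52.9 (1 UMI), 247 and 478. Vtn was at 3311, 5102 and 6793 CPM and 2559, 3406 and 5492 CPM (log2 fold change 0.44, SE 0.22, FDR = 0.433).

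Of the 13 markers, 8 were among the 313 genes, and 2 of these, Kcnj8 and Ndufa4l2, were higher at an unadjusted p below 0.05, with none lower. Their median log2 fold change was 0.30, against -0.03 over the 313 genes. Over the 6326 genes, where 2.42% were higher and 2.70% lower at that threshold, 4 of 13 were higher (with Vtn and Abcc9) and none lower, and the median was 0.20 against -0.02. These counts include Kcnj8, the gene that chose the cluster, and are a description. Of 5 astrocyte markers among the 313 genes, 4 were below 0 (median -0.35), as were all 3 oligodendrocyte markers (median -0.43). Of 6 astrocyte markers among the 6326 genes, 1 was higher at an unadjusted p below 0.05 and none lower (median -0.36). Of 6 oligodendrocyte markers there, none was higher and 2 were lower (median -0.58). The part of such transcripts in the pericyte marker values was not tested. Rgs5 (0.16), Pdgfrb (0.19), Higd1b (0.05), Atp13a5 (0.41) and Rgs4 (-0.03) had edgeR FDRs of 0.635 to 0.980, and the sign of each of these 5 changed under 1 to 8 of 23 other settings. The summed CPM of the 13 markers was 10307 to 19500.4 under FGF1 and 8407 to 15685 under vehicle, and the ranges overlapped.

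**Figure D5:**
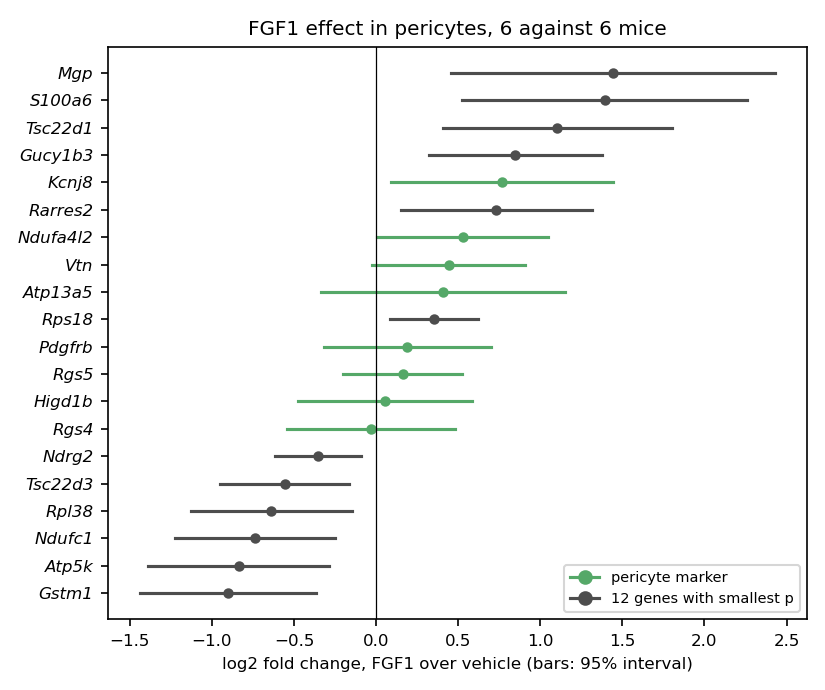
Points are log2 fold changes of FGF1 over vehicle in pericytes and bars their 95% intervals from edgeR, for the 8 tested pericyte markers (green) and the 6 higher and 6 lower genes with the smallest p (grey), 6 against 6 mice. Mgp (1.44) and S100a6 (1.39) are at the upper end with wide bars and Gstm1 (-0.90) at the lower end.

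The functional lists were described by the genes that passed an unadjusted p below 0.05, first among the 313 genes and then among the 6326. Over all genes, 6.07% of the 313 were higher and 5.43% lower at that threshold, and 2.42% and 2.70% of the 6326. With so few genes per list, these counts are a description and nothing particular to a list is read from them. For mural function, the contractile list had 1 of 3 higher (Myl9, log2 fold change 0.49, edgeR FDR = 0.379) and 2 of 12 in the wider set (with Tpm2, 1.07, FDR = 0.923), none lower. The potassium channel list had 1 of 1 and 2 of 3 higher, Kcnj8 and Abcc9. The vasoactive list had 1 of 5 higher, Gucy1b3, and 2 of 14 in the wider set, with the G-protein subunit Gng11 (0.57). Transporters and ectoenzymes had none of 1 and none of 12 in either direction.

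For matrix and signalling, where the shares over all 6326 genes were 2.42% higher and 2.70% lower, the basement membrane list had 1 of 3 lower, Sparc, a collagen-binding matrix protein (-0.40, edgeR FDR = 0.344), which was lower in 6 of 6 batches and stood at 5084 CPM in astrocyte-like cells, and in the wider set 1 of 22 higher, Vtn. The list of PDGF, Notch, TGF-beta, angiopoietin and S1P signalling had none of 3, and in the wider set 1 of 19 higher, Id3, a target of BMP signalling (1.15, FDR = 0.314). Id3 stood at 1307 CPM in endothelial-like cells against 362 CPM in pericytes. Feedback genes of the FGF receptor and MAPK pathway were sparse: none reached the 313 genes, and of 12 in the wider set 1 was lower, Spry2 (-1.01, FDR = 0.923), with a median log2 fold change of -0.20. The most counted FGF receptor gene, Fgfr3, had 103 UMIs in 18.9% of pericytes and 751 CPM in the astrocyte-like cells against 256 ± 212 CPM in pericytes. Fgfr1 had 29 UMIs in 7.52% of pericytes.

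For states of activation, beside the same 6.07% higher of 313 and 2.42% of 6326 genes, the activation and scar list had 1 of 3 higher, S100a6, and in the wider set 3 of 15 (Emp3 among them, at 1.18, FDR = 0.923), with a median of 0.58. The interferon, chemokine and MHC class I list had 1 of 3 higher, Ifitm3 (0.92, FDR = 0.379), an interferon-induced membrane protein that was higher in 6 of 6 batches, and 3 of 15 in the wider set (with B2m and Serping1). B2m was higher in 6 of 6 batches at a log2 fold change of 0.62 (FDR = 0.550). Agreement in 6 of 6 batches was also seen in other genes, such as Gng11, Rpl19 and Fxyd1 (higher) and Rps21, Cox7c and Aldoc (lower). The share of all genes with such agreement was not counted. Ifitm3 and B2m stood at 1126 and 1049 CPM in endothelial-like cells against 712 and 534 CPM in pericytes. The part of endothelial transcripts in these values was not tested. Immediate early genes had none of 2 and none of 18, and heat shock genes none of 4 and 1 of 10 higher, Dnajb1 (1.80, FDR = 0.485), whose highest value of 367 CPM was in FGF1 replicate 10.

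For metabolism, the hypoxia and glycolysis list had Ndufa4l2 higher (0.53) and Aldoc lower (-0.35) among 7 genes, and Pgam1 lower (-1.08) in the wider set of 17. Aldoc stood at 2879 CPM in the astrocyte-like cells against 1121 CPM in pericytes, and the part of astrocyte transcripts was not tested. The glucocorticoid-responsive list had 1 of 2 lower, Tsc22d3, and none of 8 in the wider set. Of 73 ribosomal protein genes, 5 were higher and 3 lower, with a median of -0.03, near the 6.07% and 5.43% of all 313 genes, whereas in the wider set none of 78 was higher and 5 were lower (median -0.04), against 2.42% and 2.70% of all genes. All 12 mitochondrially encoded genes were below 0 (median -0.16) with none past the unadjusted threshold, and in the wider set 2 of 13 were lower (median -0.19). Of all 313 genes, 169 were below 0. Among the lists, the wider set called 1 gene at FDR below 0.05, S100a6.

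Whether FGF1 acted otherwise in pericytes than in their neighbours was tested as an interaction in the same 12 mice, with the mouse as a block. Against endothelial-like cells, none of 3167 genes passed (percent called 0), and 117 (3.69%) had an unadjusted p below 0.05. The smallest p with a log2 fold change higher in pericytes belonged to Cdk4 (difference in log2 fold change 2.38), Cpe (0.51), Lims1 (1.11) and Dnajb1 (1.68), each with an edgeR FDR of 0.994. Cdk4 had 29 UMIs in pericytes and Dnajb1 had 47, of which 31 were in FGF1 replicate 10. The smallest p with a log2 fold change lower in pericytes belonged to Trim56, Rpl38 (-0.42), Fli1 and Rsad2, also with FDRs of 0.994. Trim56 and Rsad2 had 9 and 5 UMIs in the pericytes of vehicle mice and none under FGF1, and Fli1 had 13 UMIs in all, of which 1 was under FGF1, so no fold is given. S100a6 had a log2 fold change of 1.14 (FDR = 0.0548) in endothelial-like cells, and the difference of 0.23 from pericytes had an interval of -0.27 to 0.74. For Mgp the value in endothelial-like cells was 0.63 and the difference 0.70 (0.23 to 1.17, FDR = 0.994).

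The astrocyte-like cluster (4109 cells, Agt in 78.2%) was chosen over another of 9471 cells with Agt in 77.5%. Against it, 2 of 1336 genes (0.150%) passed, and 92 (6.89%) had an unadjusted p below 0.05. The taurine transporter gene Slc6a6 differed by 2.36 (SE 0.47, edgeR FDR = 0.00739), with a log2 fold change of -1.32 in those astrocyte-like cells and 0.84 in pericytes. Slc6a6 stood at 1028 CPM in endothelial-like cells and 128 CPM in pericytes, and the part of endothelial transcripts was not tested. Gfap differed by 2.64 (SE 0.53, edgeR FDR = 0.00739), with -0.49 (FDR = 0.873) in the astrocyte-like cells and 1.78 in pericytes, where it had 38 UMIs in all. Gfap is a marker gene of astrocytes, with 823 CPM in that cluster and 79.8 CPM in pericytes. The value of -0.49 is for 1 of 2 Agt-rich clusters only. In the study's own test, astrocytes at Day 5 had Gfap among their most raised genes. In endothelial-like cells Gfap rose under FGF1 by a log2 fold change of 1.26 (edgeR FDR = 0.0113), and the difference of pericytes from them was 0.62 (-0.68 to 1.91, FDR = 0.994). Both calls were lost without FGF1 replicate 10 (FDR = 0.191 for Slc6a6 and 0.188 for Gfap) and without vehicle replicate 20 (0.0848 and 0.222), and that of Slc6a6 also without FGF1 replicate 36 (0.0936). With both Agt-rich clusters taken as astrocytes, a choice made after seeing the data, the differences were 0.98 and -0.028. The next smallest p with a log2 fold change higher in pericytes belonged to S100a6 (1.07) and Tsc22d1 (1.22). Among those with a log2 fold change lower in pericytes were Vps8 (-0.90), Pla2g7 (-1.63) and F3 (-1.72). None of these passed.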

How the data were processed

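Whole hypothalamic cells were profiled with the 10x Genomics 3′ v2 kit, 1 male mouse per library. Per the labels, reads were processed with Cell Ranger 1.2 (GRCm38), and the authors deposited UMI counts per gene and cell with a table of clusters made in Seurat. The authors also gave, for each cell, the percent of UMIs from mitochondrial genes, and this was used as deposited. The study's methods describe removing doublets, neurons, clusters of mixed markers and cells over 20% mitochondrial or ribosomal transcripts, but do not say whether the deposited table is from before or after each step. Of the 359 deposited pericytes, 40 were over that limit, and no doublet caller was run here. The UMI totals of all 54890 cells equalled the deposited totals. Pericytes were the cluster with the highest percent of Kcnj8-positive cells, and cell names of other clusters rest on marker lists. The members and lists were chosen with earlier results of these data known.

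UMI counts were summed per mouse (12487 to 84511 in pericytes) and tested with edgeR 4.0.16 (R 4.3.3) by the quasi-likelihood test with TMM scaling and Benjamini-Hochberg adjustment, FDR below 0.05. Interactions with endothelial-like or astrocyte-like cells used the mouse as a block. DESeq2 1.42.0 was an alternative. Shares and medians per mouse were compared by exact permutation in SciPy 1.17.1, whose smallest p for 6 against 6 mice is 0.00216. Intervals of shares cover counting error only. The named genes were the 6 higher and 6 lower with the smallest p, the pericyte markers, the 2 most counted and any member at p below 0.05 of each list, the 25 with the largest ratio to other cells, and the 4 with the smallest p per direction of each interaction. Of these, those that show the findings are printed, and a few genes are not reported here. The steps were tested on simulated data.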

Additional observations from a re-analysis of the deposited data

Results flagged for a closer look

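Mgp in the pericytes of FGF1 replicate 7 was at 3935 CPM, apart from the other 5 FGF1 mice (320.3 to 1444 CPM), with a gap of 0.689 of the range against a critical value of 0.625. Chance gives about 1 in 20 groups, or 2.9 of the 58 groups tested, and 1 was found. Without this mouse the log2 fold change of Mgp was 0.95 in place of 1.44.

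The FGF1 effect differed between pericytes and astrocyte-like cells for Slc6a6, by 2.36 on the log2 scale (95% interval 1.40 to 3.31), and for Gfap, by 2.64 (1.57 to 3.71), in the edgeR interaction test over 12 mice. Slc6a6 rested on 71 UMIs and Gfap on 38 UMIs in pericytes. Slc6a6 was called in 11 and Gfap in 12 of 18 other settings. Of the 18, 12 left out 1 mouse, and the setting of at least 5 cells per mouse repeated the main fit. RLE scaling kept both calls. Both were lost without a low-count filter, without cells over 20% mitochondrial or ribosomal UMIs and without the mouse block. The fit without cells over 20% also lacked vehicle replicates 27 and 35, then under 10 pericytes. With both Agt-rich clusters as astrocytes the differences were 0.98 and -0.028, neither called.

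The nuclei, which enter no comparison here, also held pericyte markers. Of 96 nuclei annotated as endothelial, 76 (79.2%) held at least 3 of the 8 pericyte markers, with nuclei from all 10 mice. These 76 had 4008 CPM of the pericyte markers and 14085 CPM of the 8 endothelial markers, and all 76 held 2 or more endothelial UMIs. The other 20 endothelial nuclei had 499 and 12863 CPM. The cut used these same pericyte markers, so a higher sum of them is in part built in. Median UMIs were 3862 in the 76 nuclei and 2631 in the other 20, and deeper nuclei reach the cut more easily.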

How the results depend on the processing

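The count of DEGs in pericytes was 0 under RLE scaling, DESeq2 and the batch block. It was 1 without a low-count filter (Mgp), 2 with at least 10 UMIs per gene and 2 with at least 20 cells per mouse (Mgp and S100a6 each time), and 1 without cells holding endothelial UMIs (S100a6). The minimum of 20 cells left out FGF1 replicates 7, 21 and 28 and vehicle replicates 27 and 35. FGF1 replicate 21 held the lowest FGF1 values of Mgp and S100a6. Leaving out 1 mouse gave 0 to 3, with 3 without vehicle replicate 22 (Tsc22d1 and Gstm1 among them). The count against endothelial-like cells was 1 without cells over 20% mitochondrial or ribosomal UMIs (Malat1) and 0 in each fit that left out 1 mouse. Fits without cells over 20% also lacked vehicle replicates 27 and 35, then under 10 pericytes. The count against astrocyte-like cells was 0 without a low-count filter, 0 without those cells, 0 without the mouse block, and 0 to 3 when 1 mouse was left out. It was 7 with both Agt-rich clusters as astrocytes, where the difference for Gfap turned to -0.028. That setting was added after seeing the data. The causes were not tested. The 12 genes with the smallest p kept their sign in every alternative that tested them. The permutation tests made no call under any alternative (p = 0.0519 to 0.974 by exact permutation). The mice were paired by batch, and the fit with batch as a block called 0 genes. No paired analysis was possible by replicate number because FGF1 and vehicle mice of the whole-cell set share fewer than 2 such numbers. With 11 to 63 pericytes per mouse, only 313 genes were tested, at a median 95% half-width of 0.48 on the log2 scale.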
